A study of Mus musculus with 12 samples.

Results

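Neuropeptide Y (Npy) and 3 of its receptors, Npy1r, Npy2r and Npy5r, were examined in whole lungs of mice kept in hypoxia or normoxia. These 4 genes were taken by their symbols in the platform annotation and made up 4 of the 24704 genes measured, with 1 probe set each. Npy1r was included because it was already known to be higher in the hypoxic lungs of these same arrays. Its differences with oxygen are therefore described without a test, while Npy, Npy2r and Npy5r were tested in every comparison and Npy1r in the comparisons of genotype.

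The arrays fell into 4 groups of 3, and the design text counts mice, so each array was taken as 1 animal. Knockout hypoxia lungs came from Nfat5(EC)-/- mice kept in hypoxia for 21 days, and control hypoxia lungs from Nfat5fl/fl mice kept in the same way. Knockout normoxia and control normoxia lungs came from Nfat5(EC)-/- and Nfat5fl/fl mice in normoxia. Nfat5 encodes a transcription factor known for the response to salt stress. Male and female mice carrying floxed Nfat5 were treated as adults of 10 to 12 weeks. Knockout mice were given 1 mg of tamoxifen a day on 5 days, while control mice were given the solvent miglyol alone. Experiments followed after 2 to 3 weeks. An effect of the endothelial deletion and one of tamoxifen cannot be told apart here. The labels used here do not name the promoter that drove the recombination. The authors set aside lungs with other tissue such as thymus, and lungs with an inadequate expression response to hypoxia. The comparisons of hypoxia with normoxia thus rest on animals chosen partly on that response.

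Neuropeptide Y is a peptide that sympathetic nerves release together with noradrenaline. Its receptors couple to inhibitory G proteins, which lower cyclic AMP inside the cell. The Y1 receptor, encoded by Npy1r, is known as the receptor on vascular smooth muscle through which the peptide narrows vessels. The Y2 receptor, encoded by Npy2r, sits largely on nerve endings, where it restrains further release. The Y5 receptor, encoded by Npy5r, is best known in the brain for its part in feeding. In mice, megakaryocytes and platelets also carry the peptide.

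The Npy1r and Npy5r genes lie next to each other on mouse chromosome 8 and are transcribed away from one another, with 9.33 kb between their starts. Their promoter windows are shown because Npy1r was chosen for its difference with oxygen while its neighbour Npy5r showed none that passed a test. Each window runs from 250 bases before the start to 50 bases after it, and the sequences and positions are those of RefSeq on GRCm38.p6. The Npy1r window is chr8:66697172-66697471 on the plus strand, and the Npy5r window is chr8:66688045-66688344 on the minus strand. Capitals mark the searched motifs that were found.
Npy1r: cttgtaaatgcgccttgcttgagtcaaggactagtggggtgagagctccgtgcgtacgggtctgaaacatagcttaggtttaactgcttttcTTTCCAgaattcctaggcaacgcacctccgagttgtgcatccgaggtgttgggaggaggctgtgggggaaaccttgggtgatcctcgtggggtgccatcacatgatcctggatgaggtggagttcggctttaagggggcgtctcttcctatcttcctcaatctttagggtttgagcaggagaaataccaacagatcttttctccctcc
Npy5r: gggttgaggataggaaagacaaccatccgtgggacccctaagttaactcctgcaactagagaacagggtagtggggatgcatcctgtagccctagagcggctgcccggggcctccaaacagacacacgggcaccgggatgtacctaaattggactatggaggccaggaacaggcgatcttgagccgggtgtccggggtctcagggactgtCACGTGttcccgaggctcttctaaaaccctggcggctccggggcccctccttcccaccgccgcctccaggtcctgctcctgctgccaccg

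Both strands were searched for ACGTG and GCGTG (cores of the HIF site), CACGTG (the E-box), TGACGTCA and its shorter form TGACG (the cyclic AMP response element), and TGGAAA (the NFAT core). The Npy1r window held 1 of these, TGGAAA on the minus strand. It reads TTTCCA in the sequence above, with the leftmost base at -158 from the start. That motif was present in 21.4% of 32851 mouse promoter windows of the same length. The Npy5r window held CACGTG at -40, a motif found in 7.15% of windows. CACGTG contains ACGTG on each strand, and these letters alone were found in 19.6% of windows. The windows of Npy (at -65) and Npy2r (at -170) each held 1 GCGTG, a motif of 32.4% of windows. TGACGTCA occurred in 1.79% and TGACG in 20.8% of windows, and in 0 of the 4 windows described here. The GC content was 51.7% for Npy1r, against 61.7% for Npy5r, 57.7% for Npy2r and 68% for Npy.

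The values are log2 signals of probe sets, which can be compared between arrays but not between genes. The arrays had identical distributions after the authors' normalization, with a median of 4.55, and within groups the arrays correlated at 0.989 to 0.994. Markers of lung epithelium were high on every array, with the surfactant gene Sftpc between 13.36 and 13.58 and the alveolar type 1 gene Ager between 12.29 and 12.62. Nfat5 averaged 8.34 ± 0.15 in knockout hypoxia and 8.43 ± 0.24 in control hypoxia lungs (SD, n = 3 each). It averaged 8.67 ± 0.11 in knockout normoxia and 9.11 ± 0.25 in control normoxia lungs. Knockout minus control was -0.08 in hypoxia (limma adjusted p = 0.974) and -0.44 in normoxia (limma adjusted p = 0.620), and neither passed. Hypoxia minus normoxia was -0.68 in control lungs, which passed (limma adjusted p = 0.016), and -0.33 in knockout lungs (limma adjusted p = 0.382). Whole lung holds Nfat5 RNA of cells that keep the gene, and the labels do not say which part of Nfat5 the probe set reads. Ucp1, a marker of brown fat, was high on knockout normoxia 2 (9.31) and control hypoxia 1 (7.66). Nppa, a hormone gene of the heart's atria, was high on knockout normoxia 2 (11.94) and 4 (9.41).

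Of the 4 genes, Npy1r had a mean over the 12 arrays (5.84) above that of the median probe set, and so would pass a filter on dim probe sets. Npy (3.94), Npy5r (3.43) and Npy2r (3.02) lay below it and would not. Of all genes, 62.7% had a lower mean than Npy1r, against 41.8% for Npy, 29.3% for Npy5r and 14.5% for Npy2r. Npy1r was also the member that varied most, with an SD over the 12 arrays of 0.86, larger than that of 99.5% of genes. That spread holds the oxygen difference on which Npy1r was chosen, and is no separate trait. The SD was 0.15 for Npy, 0.15 for Npy2r and 0.07 for Npy5r.

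**Figure D1:**
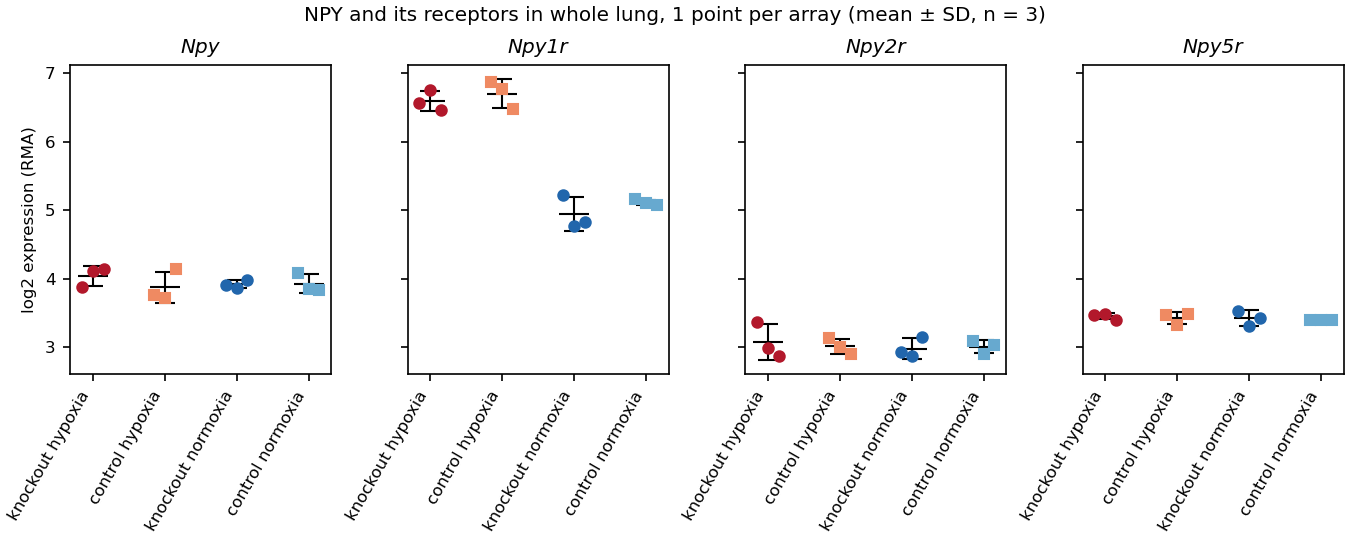
Log2 expression of Npy, Npy1r, Npy2r and Npy5r on each of the 12 arrays, with 1 point per array, the groups side by side and the mean and SD of each group as lines (n = 3). The 6 hypoxic arrays lie at 6.47 or above for Npy1r and the 6 normoxic ones at 5.22 or below, while the points of the other genes overlap between groups.

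Npy1r was about 3 times as high in hypoxic as in normoxic lungs, in both genotypes. In knockout lungs it read 6.56, 6.75 and 6.47 in hypoxia, against 5.22, 4.77 and 4.84 in normoxia (log2). Every hypoxic knockout array lay above every normoxic one. In control lungs it read 6.88, 6.76 and 6.47 in hypoxia, against 5.16, 5.11 and 5.08 in normoxia. Here too all hypoxic arrays lay above all normoxic ones, and the 3 control normoxia arrays differed among themselves by less than 0.1 (log2).

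The means of Npy1r were 6.60 ± 0.14 in knockout hypoxia and 4.94 ± 0.25 in knockout normoxia lungs (SD, n = 3 each), a log2 difference of 1.65 ± 0.14 (SE) or 3.15-fold, with a 95% interval of 1.36 to 1.95. They were 6.70 ± 0.21 in control hypoxia and 5.12 ± 0.04 in control normoxia lungs, a log2 difference of 1.59 ± 0.14 or 3.01-fold, with an interval of 1.29 to 1.88. Averaged over both genotypes the difference was 1.62 ± 0.10 or 3.08-fold. Ordered from the largest increase down, Npy1r stood at place 15 of 24704 genes in knockout lungs, at 17 in control lungs and at 10 on average. These values chose the gene and are given as a description. In whole tissue, more cells that hold Npy1r and more Npy1r RNA in each cell cannot be told apart.

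In order of level with all arrays kept, control hypoxia came first for Npy1r, then knockout hypoxia, control normoxia and knockout normoxia. Both hypoxic groups overlapped array by array, as did both normoxic groups, and the wide step lay between the hypoxic and the normoxic groups. Between genotypes the difference in hypoxia, knockout minus control, was -0.11 ± 0.14 (95% interval -0.40 to 0.19, limma adjusted p = 0.964; exact permutation p = 0.4). In normoxia it was -0.17 ± 0.14 (interval -0.47 to 0.12, limma adjusted p = 0.821; exact permutation p = 0.4). An exact two-sided test of 3 arrays against 3 cannot give a p below 0.1. The hypoxia difference in knockout minus that in control lungs was 0.07 ± 0.19, with an interval of -0.35 to 0.49, which leaves room for a moderate difference between genotypes in either direction. It is given without a test, since it contains the contrast on which Npy1r was chosen. Without the 2 arrays of high Nppa, both of knockout normoxia, knockout minus control in normoxia was 0.11. The hypoxia difference in knockout minus that in control lungs was then -0.21. That setting left knockout normoxia 1 (5.22) alone in its group. The order of the normoxic groups and the signs of these differences thus depended on the arrays kept.

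The sexes were not balanced between hypoxia and normoxia. By the Y-linked genes Eif2s3y, Kdm5d and Uty, which read 4.67 to 7.31 on 6 arrays and 2.61 to 3.64 on the 6 others, 2 of the 6 hypoxic and 4 of the 6 normoxic arrays were high. Among arrays with high Y-linked signal, Npy1r lay between 6.47 and 6.56 in hypoxia (2 arrays), against 4.77 to 5.11 in normoxia (4 arrays). Among those with low signal it lay between 6.47 and 6.88 in hypoxia (4 arrays), against 5.16 to 5.22 in normoxia (2 arrays). Since all 6 hypoxic arrays lay above all 6 normoxic ones, any split of the arrays gives this order. With the mean of the Y-linked genes as a covariate, the Npy1r difference was 1.55 in knockout and 1.48 in control lungs. Without knockout normoxia 2 and 4, the 2 arrays of high Nppa, the Npy1r difference in knockout lungs was 1.37. That left knockout normoxia 1, the highest normoxic array for Npy1r (5.22), alone in its group. Without knockout normoxia 2 and control hypoxia 1, the 2 of high Ucp1, the Npy1r difference was 1.57 in knockout and 1.50 in control lungs. Dbp and Arntl, 2 genes of the circadian clock, also separated hypoxic from normoxic arrays. Dbp read 10.81 to 11.14 in hypoxia, against 8.01 to 9.98 in normoxia. Arntl read 4.71 to 5.28 in hypoxia, against 6.17 to 8.11 in normoxia. The part of clock state in the Npy1r difference was not tested.

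Npy, the gene of the peptide, showed no difference that passed a test. In knockout lungs it read 3.88, 4.12 and 4.14 in hypoxia, against 3.91, 3.87 and 3.99 in normoxia (log2). In control lungs it read 3.76, 3.73 and 4.14 in hypoxia, against 4.09, 3.86 and 3.84 in normoxia. The hypoxic and normoxic arrays overlapped in both genotypes. The hypoxia difference was 0.12 ± 0.12 in knockout lungs (SE; 95% interval -0.14 to 0.39, limma adjusted p = 0.777; exact permutation p = 0.3) and -0.05 ± 0.12 in control lungs (interval -0.32 to 0.21, limma adjusted p = 0.828; exact permutation p = 0.6). Knockout minus control was 0.17 in hypoxia (limma adjusted p = 0.947) and -0.01 in normoxia (limma adjusted p = 0.995). The low signal of this probe set limits the differences that it can show.

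Npy2r was the dimmest member. In knockout lungs it read 3.38, 3.00 and 2.87 in hypoxia, against 2.93, 2.87 and 3.15 in normoxia. In control lungs it read 3.13, 3.01 and 2.91 in hypoxia, against 3.09, 2.90 and 3.04 in normoxia. The highest value, knockout hypoxia 2, stood alone, and the groups overlapped. The hypoxia difference was 0.10 ± 0.13 in knockout lungs (95% interval -0.19 to 0.38, limma adjusted p = 0.850) and 0.01 ± 0.13 in control lungs (interval -0.28 to 0.29, limma adjusted p = 0.980). Knockout minus control was 0.07 in hypoxia (limma adjusted p = 0.975) and -0.03 in normoxia (limma adjusted p = 0.982).

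Npy5r, the neighbour of Npy1r, had the smallest spread of the 4 genes. In knockout lungs it read 3.47, 3.49 and 3.40 in hypoxia, against 3.54, 3.32 and 3.43 in normoxia. In control lungs it read 3.47, 3.33 and 3.48 in hypoxia, against 3.40, 3.41 and 3.40 in normoxia. All 12 values lay between 3.32 and 3.54, and the groups overlapped. The hypoxia difference was 0.02 ± 0.08 in knockout lungs (95% interval -0.15 to 0.20, limma adjusted p = 0.958) and 0.02 ± 0.08 in control lungs (interval -0.15 to 0.20, limma adjusted p = 0.888). Knockout minus control was 0.03 in hypoxia (limma adjusted p = 0.988) and 0.03 in normoxia (limma adjusted p = 0.962).

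**Figure D2:**
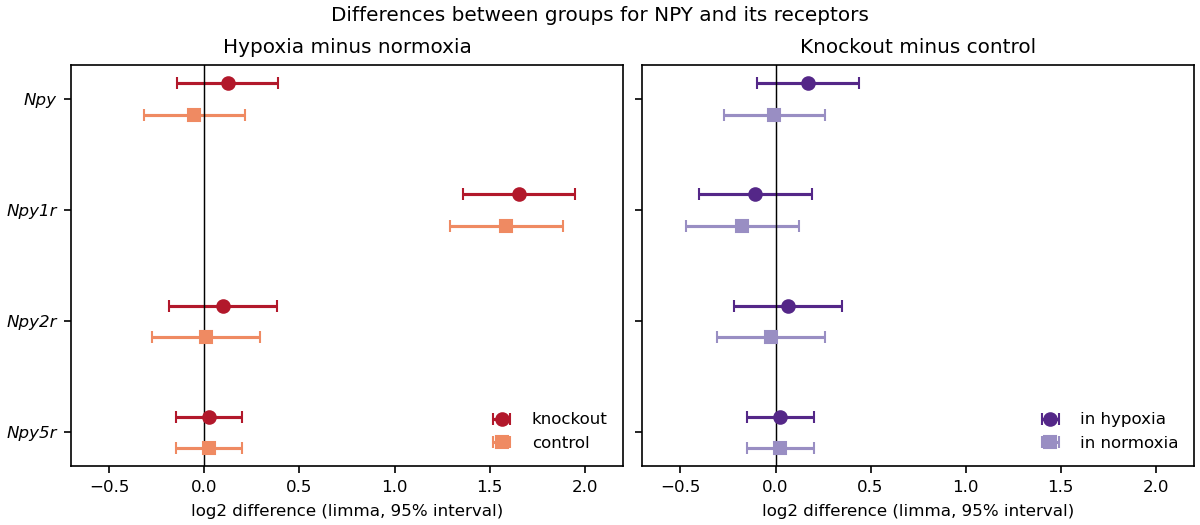
Log2 differences of Npy, Npy1r, Npy2r and Npy5r from the limma fit, hypoxia minus normoxia on the left and knockout minus control on the right, with bars for the 95% interval. The Npy1r differences with hypoxia, 1.65 in knockout and 1.59 in control lungs, chose the gene and are not tested. The intervals of the tested differences all include 0.

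Counted together, 0 of the 3 tested members passed an adjusted p of 0.05 for hypoxia in knockout lungs, where 1.14% of all genes did, and 0 of 3 in control lungs, where 11.5% did. Averaged over genotypes, 0 of 3 passed beside 14.7% of all genes. For knockout minus control, 0 of 4 passed in hypoxia (0% of all genes), 0 of 4 in normoxia (0.00405%) and 0 of 4 on average (0%). For the difference of the hypoxia response between genotypes, 0 of 3 passed, beside 0.00405% of all genes. At an unadjusted limma p under 0.05 the counts were again 0 in all 7 comparisons. The hypoxic and normoxic arrays of Npy1r did not overlap, with the hypoxic ones higher, which was so for 10.9% of all genes in knockout and 14% in control lungs, and that contrast chose the gene. With the 3 other members dim, these counts say little about differences smaller than their intervals.

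Over the 12 arrays, the correlation with Npy1r was 0.05 for Npy, 0.21 for Npy2r and 0.25 for Npy5r. These are descriptions over arrays that share 4 groups. The genes that flank Npy1r and Npy5r were read for comparison. Marchf1, Tma16 and Tktl2 on the side of Npy5r, and Naf1, Nat1 and Nat2 on the side of Npy1r, had hypoxia differences between -0.14 and 0.09 in knockout and between -0.34 and 0.32 in control lungs. None of these neighbours passed an adjusted p of 0.05, and the smallest was 0.108, of Marchf1 in control lungs.

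The genes whose pattern over the 12 arrays was most like that of Npy1r were Mfap4 (Pearson r = 0.977), Dipk2b (0.976), Art4 (0.971), Adam23 (0.969), Cdk19 (0.969) and Wfdc1 (0.967). Mfap4 encodes a microfibril protein of the elastic fibre, Adam23 an adhesion protein of the ADAM family and Cdk19 a kinase of the Mediator complex. Of all 24704 genes, 129 had an r of at least 0.9 with Npy1r and 18 an r of at least 0.95. Because Npy1r itself separates hypoxic from normoxic arrays, genes like it do so too. Their sizes differed. Adam23 differed between hypoxia and normoxia by 2.01 in knockout and 2.29 in control lungs, and Cdk19 by 1.71 and 1.89, both more than Npy1r. Wfdc1 (1.22 in knockout and 1.32 in control lungs), Dipk2b (1.01 and 0.79), Art4 (0.68 and 0.66) and Mfap4 (0.59 and 0.60) differed by less.

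The most opposite genes were Hs3st1, a heparan sulphate sulphotransferase (r = -0.973), Syt15 of the synaptotagmin family (-0.972) and Fmo1, a flavin-containing monooxygenase (-0.966). Hypoxia minus normoxia was -0.53 in knockout and -0.61 in control lungs for Hs3st1, -1.01 and -0.83 for Syt15, and -0.93 and -1.002 for Fmo1. On all 3, the 6 hypoxic arrays lay below the 6 normoxic arrays, as follows from being picked as opposite to Npy1r.

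**Figure D3:**
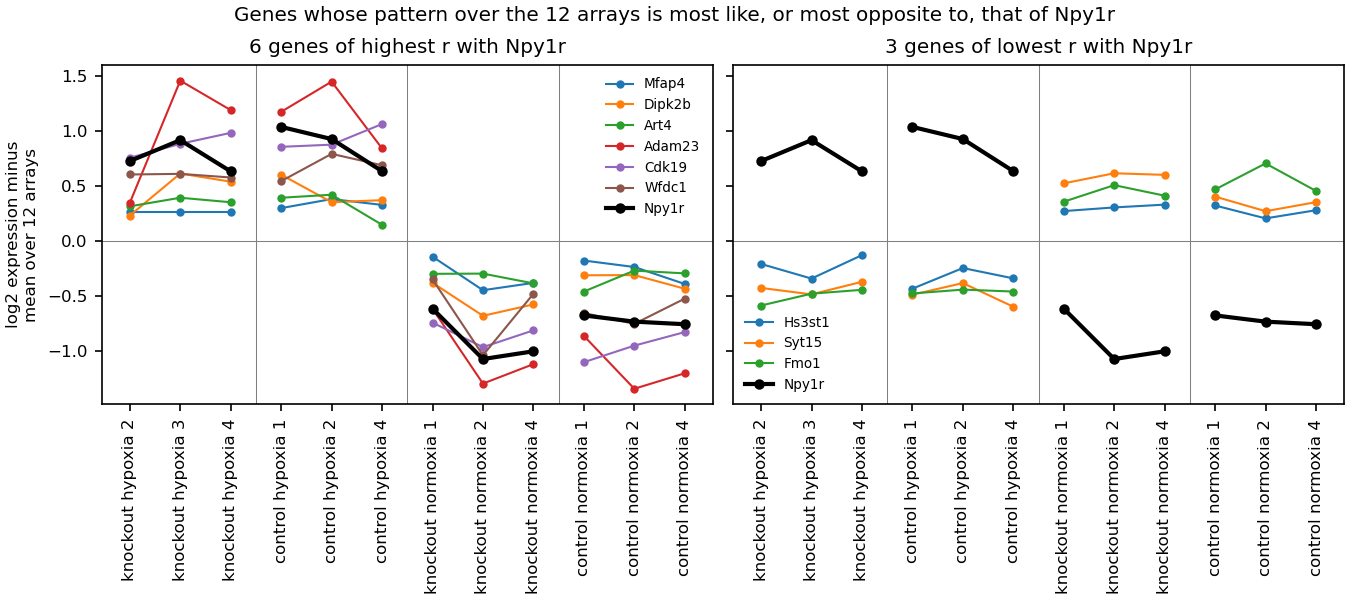
Log2 expression on each of the 12 arrays, as the distance from the gene's own mean over the arrays, for Npy1r (black) with the 6 genes of highest r on the left and the 3 of lowest r on the right. Lines join arrays of 1 group. Adam23 and Cdk19 reach further from their means than Mfap4 and Art4, and the 3 genes on the right run the opposite way.

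The lists of genes around the peptide held 81 members, of which 70 were measured. They cover the other peptides and receptors of the family (listed with Npff and its receptors), peptide processing and the peptidases that cut NPY. Also covered are inhibitory G proteins and their potassium channels, adenylyl cyclases, arrestins and receptor kinases, noradrenaline handling, adrenergic receptors and other vasoactive neuropeptides. For hypoxia in knockout lungs 0 rose and 2 fell, together 2.86% of the 70, while 0.64% of all genes rose and 0.502% fell. In control lungs 3 rose and 3 fell, together 8.57%, while 5.36% of all genes rose and 6.14% fell. The median difference was -0.01 in knockout and 0.01 in control lungs, against 0.003 and 0.01 over all genes. For knockout minus control, in hypoxia or in normoxia, and for the difference of the response between genotypes, 0 of the 70 passed. Leaving out the 2 arrays of high Nppa left 1 knockout normoxia array, and its counts are not given. Without the 2 arrays of high Ucp1, 0 of the 70 passed for hypoxia in knockout and 5 in control lungs. Of all genes 51 and 2834 then passed, so the 0 says little about the lists.

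The other ligands and receptors of the family were listed together with Npff and its receptors Npffr1 and Npffr2. Of these 7 genes, 0 passed in either genotype. Pyy, the related gut peptide, differed with hypoxia by 0.14 in knockout and 0.17 in control lungs (limma adjusted p = 0.702 and 0.385). Npy4r, the receptor of pancreatic polypeptide, differed by 0.14 and -0.06 (0.728 and 0.804). Both read low, Pyy between 3.06 and 3.57 and Npy4r between 3.16 and 3.65, while Npff, an RF-amide peptide, read between 5.06 and 5.98. Npffr1, a receptor of these peptides, differed by 0.28 in knockout and 0.30 in control lungs (limma adjusted p = 0.615 and 0.357).

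Of the 5 peptidases, 1 rose and 1 fell in control lungs, and 0 passed in knockout lungs. Dpp4, which trims NPY into a form that no longer acts on the Y1 receptor, read 8.60, 8.82 and 8.57 in knockout hypoxia, against 9.13, 9.35 and 9.07 in knockout normoxia. It read 8.89, 8.49 and 8.51 in control hypoxia, against 9.44, 9.46 and 9.28 in control normoxia. The hypoxic arrays lay below the normoxic ones in both genotypes. The share of all genes with hypoxic arrays lower is not given here, for Dpp4 or for the genes that follow. The opposite order, with hypoxic arrays higher, was seen for 10.9% of all genes in knockout and 14% in control lungs. A lack of overlap alone is therefore no rare trait. Dpp4 fell by 0.77 ± 0.12 in control lungs (limma adjusted p = 0.0061), while its difference in knockout lungs was -0.52 (limma adjusted p = 0.081). The 2 differences were not shown to be unequal (0.25, limma adjusted p = 0.728). With the mean of nuclear noncoding RNAs such as Malat1 as a covariate, the Dpp4 difference in control lungs was -0.40 (limma adjusted p = 0.646). That mean itself was 5.79 to 6.06 in control hypoxia, against 6.40 to 6.88 in control normoxia. The covariate thus ran with oxygen in control lungs, and a call lost with it says little about a single gene. Xpnpep1, an aminopeptidase that removes a first residue before proline, rose by 0.43 ± 0.10 in control lungs (limma adjusted p = 0.019), with a difference of 0.16 in knockout lungs (limma adjusted p = 0.544). The Xpnpep1 call was lost without control hypoxia 2 (0.37, limma adjusted p = 0.079) or control normoxia 1 (0.34, limma adjusted p = 0.066).

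Downstream of the receptors, 2 of 9 adenylyl cyclases rose in control lungs and 0 of 9 in knockout lungs. Adcy3 read 7.10, 7.47 and 7.56 in knockout hypoxia, against 6.91, 6.81 and 7.01 in knockout normoxia, and 7.23, 7.36 and 7.26 in control hypoxia, against 6.65, 6.54 and 6.81 in control normoxia. All 6 hypoxic arrays lay above the 6 normoxic ones. Within a genotype, that order was seen for 10.9% of all genes in knockout and 14% in control lungs. Adcy3 rose by 0.61 ± 0.12 in control lungs (limma adjusted p = 0.011) and differed by 0.47 in knockout lungs (limma adjusted p = 0.104). Adcy5 rose by 0.47 ± 0.11 in control lungs (limma adjusted p = 0.019) and differed by 0.39 in knockout lungs (limma adjusted p = 0.125). The Adcy5 call was lost without control hypoxia 2 (0.44, limma adjusted p = 0.076) or control normoxia 2 (0.50, limma adjusted p = 0.052).

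Of the 9 genes of inhibitory G proteins and their channels, 1 fell in each genotype. It was Gnao1, the alpha subunit of Go, in both. Gnao1 read 6.46, 6.63 and 7.13 in knockout hypoxia, against 7.45, 7.69 and 7.56 in knockout normoxia, and 6.83, 6.87 and 6.84 in control hypoxia, against 7.26, 7.75 and 7.26 in control normoxia. The hypoxic arrays lay below the normoxic ones in both genotypes. Gnao1 fell by 0.83 ± 0.17 in knockout lungs (limma adjusted p = 0.044) and by 0.58 ± 0.17 in control lungs (limma adjusted p = 0.047). Each call stood close to the threshold and was lost when any of 9 of the 12 arrays was left out, with limma adjusted p between 0.054 and 0.18 in knockout and between 0.055 and 0.17 in control lungs. The arrays whose removal kept the call were knockout hypoxia 4 and control normoxia 2 and 4 for knockout lungs, and knockout hypoxia 2 and 4 and control normoxia 4 for control lungs. In control lungs the Gnao1 difference was -0.13 with the nuclear RNA covariate and -0.92 with the mean of autonomic neuron markers as a covariate, and neither passed (limma adjusted p = 0.958 and 0.514). All 5 measured arrestins and receptor kinases had differences below 0 in both genotypes, and 0 of 5 passed. The share of all genes below 0 is not given here, and a shared direction of the 5 was not tested.

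Of the 8 measured genes for noradrenaline synthesis, storage and uptake, 1 fell in knockout lungs and 0 passed in control lungs. Maoa, the monoamine oxidase that breaks down noradrenaline and serotonin, read 7.82, 7.74 and 7.83 in knockout hypoxia, against 8.25, 8.14 and 8.19 in knockout normoxia, with no overlap. It read 8.10, 8.13 and 8.15 in control hypoxia, against 7.95, 8.13 and 8.09 in control normoxia, which overlapped. Maoa fell by 0.39 ± 0.08 in knockout lungs (limma adjusted p = 0.035) and differed by 0.07 in control lungs (limma adjusted p = 0.594). The difference between genotypes, -0.47, did not pass (limma adjusted p = 0.574), and the call in knockout lungs was lost when any of the 6 knockout arrays or control hypoxia 4 was left out (limma adjusted p 0.052 to 0.11). Only 2 of 9 adrenergic receptors were measured, and the other 7 were not analysed here.

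Of 21 measured genes of other vasoactive neuropeptides and receptors, 1 fell in control lungs. Calcrl, the receptor shared by calcitonin gene-related peptide and adrenomedullin, read 11.07, 11.42 and 11.23 in knockout hypoxia, against 11.65, 11.79 and 11.58 in knockout normoxia. It read 11.45, 11.11 and 11.19 in control hypoxia, against 11.99, 12.00 and 11.54 in control normoxia. The hypoxic arrays lay below the normoxic ones in each genotype. Calcrl fell by 0.59 ± 0.14 in control lungs (limma adjusted p = 0.023), with a difference of -0.43 in knockout lungs (limma adjusted p = 0.201). The call was lost when control hypoxia 2 or 4, or control normoxia 1 or 2, was left out (limma adjusted p 0.061 to 0.095), and the Calcrl difference was -0.06 with the nuclear RNA covariate (limma adjusted p = 0.972). Averaged over genotypes, 4 rose and 4 fell of all 70, together 11.4% beside 14.7% of all genes. That number of 8 was 0 with the nuclear RNA or the neuron marker covariate, both of which ran with oxygen in control lungs. Beyond the genes above these included Ramp3, a partner protein of Calcrl, at 0.53 (limma adjusted p = 0.0085), and Grk3, a receptor kinase, at -0.24 (limma adjusted p = 0.038), both named after their values were seen. The Grk3 call was lost when any array other than knockout hypoxia 3 or control hypoxia 4 was left out (limma adjusted p 0.052 to 0.089).

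**Figure D4:**
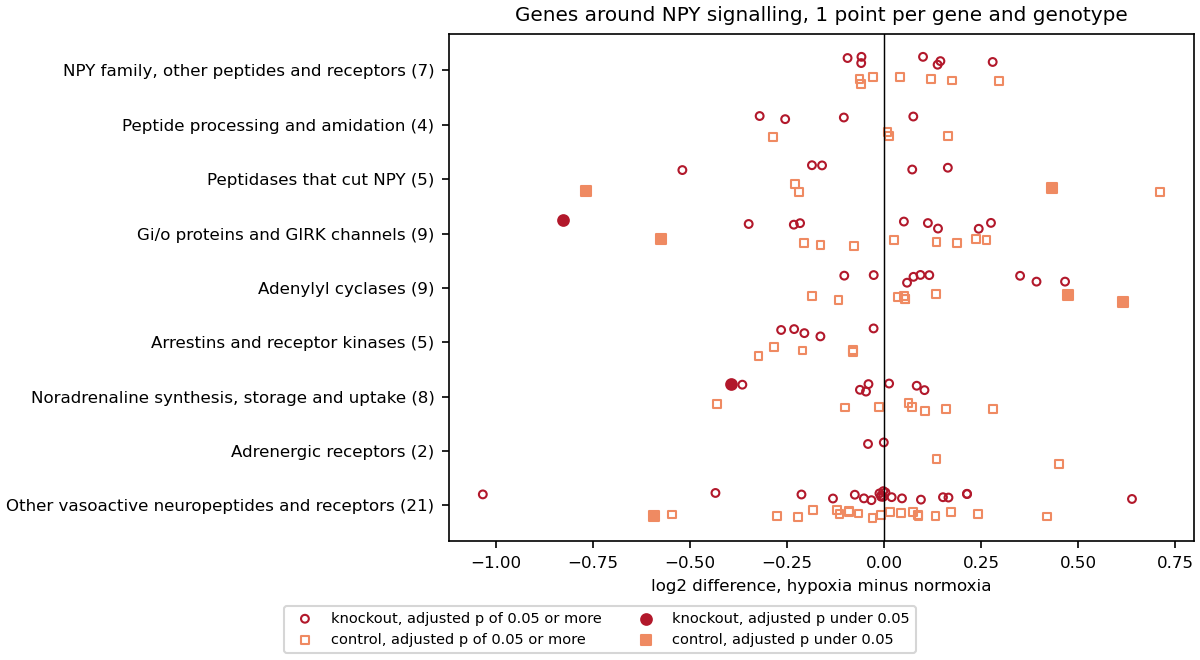
Log2 difference between hypoxia and normoxia for each measured gene of the 9 lists around NPY signalling, knockout as circles and control as squares, filled where the limma adjusted p was under 0.05. The number of measured genes stands beside each list. The filled symbols are 2 in knockout and 6 in control lungs, and the lists spread on both sides of 0.

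Markers of cell types that may hold the peptide or its receptors moved to different extents with hypoxia. Of 15 measured markers of autonomic neurons, 1 rose in knockout and 3 rose in control lungs, and 0 fell, while 0.64% of all genes rose in knockout and 5.36% in control lungs. Gap43, a protein of growing nerve endings, read 7.13, 7.39 and 7.32 in knockout hypoxia, against 6.56, 6.33 and 6.36 in knockout normoxia, and 7.51, 7.04 and 7.33 in control hypoxia, against 6.16, 5.66 and 5.39 in control normoxia. All hypoxic arrays lay above all normoxic ones, an order seen within a genotype for 10.9% of all genes in knockout and 14% in control lungs. Gap43 rose by 0.86 ± 0.18 in knockout (limma adjusted p = 0.046) and by 1.56 ± 0.18 in control lungs (limma adjusted p = 0.0017). The call in knockout lungs was lost when any of the 6 knockout arrays, control hypoxia 4 or control normoxia 2 was left out (limma adjusted p 0.062 to 0.18). Ret, a receptor of the GDNF family of growth factors, rose by 0.68 in control lungs (limma adjusted p = 0.031) and differed by 0.53 in knockout lungs (limma adjusted p = 0.21). Its call was lost without control hypoxia 1 or 2 or control normoxia 1 or 4 (limma adjusted p 0.053 to 0.13).

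The enzymes that define noradrenergic neurons stayed at low readings. Th, which makes the precursor of noradrenaline, lay between 3.16 and 3.80 over the 12 arrays and Dbh, which makes noradrenaline itself, between 3.10 and 3.47. Their hypoxia differences were -0.04 and 0.08 in knockout and 0.06 and -0.01 in control lungs, and neither passed. The mean of the 15 markers was 4.51 to 4.55 in knockout hypoxia and 4.56 to 4.65 in control hypoxia, against 4.42 to 4.51 in knockout normoxia and 4.38 to 4.46 in control normoxia. With that mean as a covariate the Npy1r difference was 1.53 in knockout and 1.30 in control lungs.

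Markers of the vessel wall, stroma and platelets were counted in the same way, beside 0.64% of all genes that rose and 0.502% that fell in knockout lungs, and 5.36% and 6.14% in control lungs. Of 10 smooth muscle markers, 0 rose in knockout and 5 rose in control lungs, and the list's mean was 8.02 to 8.20 in knockout hypoxia and 8.13 to 8.29 in control hypoxia, against 7.96 to 8.004 in knockout normoxia and 7.69 to 7.92 in control normoxia. Of 10 pericyte markers, 0 and 4 rose, and their mean was 7.49 to 7.71 in knockout hypoxia and 7.63 to 7.80 in control hypoxia, against 7.18 to 7.32 in knockout normoxia and 7.26 to 7.45 in control normoxia. Of 10 fibroblast markers, 1 and 5 rose. Lmod1, an actin-binding protein of smooth muscle, rose by 0.94 in control lungs and differed by 0.25 in knockout lungs (limma adjusted p = 0.0043 and 0.447). Mfap5, a microfibril protein, rose by 0.98 in knockout and by 1.03 in control lungs (limma adjusted p = 0.0040 and 0.0015). Lmod1 in control lungs was 0.57 with the nuclear RNA covariate (limma adjusted p = 0.484). Only 2 of all genes passed with that covariate in control lungs, so this does not set Lmod1 apart. In control lungs the calls of Lmod1, Mfap5 and Gap43 were each lost under 2 settings.

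Endothelial lists moved in both directions. Of 7 aerocyte capillary markers, 3 fell in knockout and 4 fell in control lungs, and their mean was 8.93 to 9.02 in knockout hypoxia and 8.89 to 9.05 in control hypoxia, against 9.26 to 9.57 in knockout normoxia and 9.33 to 9.41 in control normoxia. Of 8 general capillary markers, 2 fell in knockout and 3 fell in control lungs, and 7 fell when averaged over genotypes. In that average 14.7% of all genes passed in either direction. Plvap, a protein of capillary fenestrae and vesicles, fell by 1.35 in knockout and by 1.16 in control lungs (limma adjusted p = 0.010 and 0.0079). Of 6 lymphatic markers, 2 rose and 1 fell in knockout, and 4 rose and 1 fell in control lungs. Reln, an extracellular glycoprotein made by lymphatic endothelium, rose by 1.34 in knockout and by 1.53 in control lungs (limma adjusted p = 0.0051 and 0.0016). It was 0.98 in control lungs with the nuclear RNA covariate (limma adjusted p = 0.297). In control lungs the calls of Plvap and Reln were each lost under 2 settings. Of 8 pan-endothelial markers, 1 rose and 1 fell in each genotype. Of 7 arterial markers, 2 fell in knockout and 1 fell in control lungs, and of 6 venous markers 0 passed in either genotype. Leaving out the 2 arrays of high Nppa left 1 knockout normoxia array. The differences in knockout lungs were then 0.88 for Mfap5, -1.37 for Plvap and 1.41 for Reln.

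Of 11 megakaryocyte and platelet markers, 0 passed in either genotype and 3 fell when averaged over genotypes, where 14.7% of all genes passed in either direction. In knockout lungs 0 of the 11 lay above 0, with a median difference of -0.32, and in control lungs 3 lay above 0, with a median of -0.21. The median over all genes was 0.003 in knockout and 0.01 in control lungs. The share of all genes above 0 is not given here, and a shared direction of the 11 was not tested. Ppbp, a platelet chemokine, differed by -1.12 in knockout and -0.91 in control lungs (limma adjusted p = 0.261 and 0.174). The counts in these lists were not tested for a difference between genotypes, and the part of these cell types in the Npy1r difference was not tested.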

How the data were processed

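Whole lung RNA of 12 mice was measured on Affymetrix arrays from biotin-labelled cRNA. The authors deposited 1 normalized log2 value per probe set and array, made with RMA per the submitters' processing notes. Version, probe annotation and genome build were not given in the sources used here. Log2 values ran between 2.41 and 13.7 over 25428 probe sets, with distributions identical at every rank. The platform annotation paired 24705 probe sets with 1 symbol, 0 with several and 723 with none. The probe set of higher mean was kept for each symbol, which left 24704 genes. By Entrez number 24672 of them were found in a GRCm38 table, and 0 symbols changed. The number of arrays limits the precision.

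The model, fitted to every gene in limma 3.58.1 (R 4.3.3), held 4 group means (8 residual and 3.61 prior degrees of freedom), after the script was tested on simulated data. There were 7 two-sided contrasts, with Benjamini-Hochberg adjustment over all 24704 genes, a threshold of 0.05 and intervals of 95%. Errors are limma's SE unless given as SD. Exact permutation tests over arrays were run for single members. "Rose" and "fell" are used of genes that passed. The members, gene lists and tests were chosen with earlier results of these data known.

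From the lists, the text names up to 8 called genes of smallest p in each hypoxia contrast, up to 4 in each contrast of genotype, and at most 2 of largest change from the cell type lists it describes. By likeness it names the 6 genes of highest Pearson r with each member over 12 arrays, the 3 of lowest r for Npy1r, and the 6 of highest r after removing group means for Npy1r and Npy. Placeholder symbols were left out. Defining markers, tissue checks, clock genes, neighbours, Ramp3 and Grk3 are named outside this rule. Replicate numbers did not pair the arrays: in 15 same-numbered pairs, deviations from group means correlated with r between -0.248 and 0.277, and 4 pairs exceeded 0.1. Promoter windows come from a RefSeq table, and protein sequences were not used here. Alternatives left out arrays, changed the variance model, the weights or the filter, or added a block or a covariate.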

Additional observations from a re-analysis of the deposited data

How the results depend on the processing

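The Npy1r difference with hypoxia was positive under all settings run. The gene was chosen for it, and every hypoxic array lay above every normoxic one. Leaving out arrays could therefore give no other sign, and shows only how far the size moved. Leaving out 1 array at a time gave 1.57 to 1.80 in knockout lungs, 1.50 to 1.70 in control lungs and 1.58 to 1.69 averaged over genotypes. The Npy1r difference with hypoxia moved by more than the spread between replicates in 3 cases, and the cause was not tested. In knockout lungs it was 1.37 without the 2 arrays of high Nppa. That setting left 1 knockout normoxia array, which read 5.22 for Npy1r, where the 2 left out read 4.77 and 4.84. With the neuron markers as a covariate it was 1.30 in control lungs and 1.41 averaged over genotypes. With the replicate block the differences were 1.66 in knockout lungs, 1.59 in control lungs and 1.62 averaged over genotypes, so the pairing by number changed none of them. Beside the leave-one-out losses given with each gene, calls of pathway genes were also lost under covariates: with the nuclear RNA covariate, and with the neuron marker covariate, 0 of the 70 passed in either genotype. Both covariates separated hypoxic from normoxic control arrays, and few of all genes passed with them in control lungs (counts below). The 0 is therefore no result about the lists. The Ret difference in control lungs was -0.081 with the neuron marker covariate, of which Ret is itself a part.

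The counts of all genes called depended on the setting. In knockout lungs 282 were called, and 71 to 258 when 1 array was left out. The number was 40 with the replicate block, 508 with array weights and 16 with the neuron marker covariate. Leaving out the 2 arrays of high Nppa left 1 knockout normoxia array, and its count is not given. In control lungs 2839 were called, 808 to 3920 when 1 array was left out, 1100 with the 6 control arrays alone, 3 with the neuron marker covariate and 2 with the nuclear RNA covariate. Pathway genes called numbered 2 in knockout lungs (0 to 2 with 1 array left out) and 6 in control lungs (2 to 9). Npy, Npy2r and Npy5r passed under none of the settings that gave them a value, with a smallest adjusted p of 0.328, and the filter on dim probe sets left them out. Their low signal limits what can be read from them.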

Other observations

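Between animals of the same group, Npy1r ran closest to Umodl1 (Pearson r = 0.945 over the 12 values after each group's mean was removed), Depdc1b (0.925), Raet1d (0.915), Rbbp9 (0.912), Spata16 (0.906) and Rhobtb3 (0.900). None of these was among the 6 genes closest to it over the plain values. Their differences with hypoxia lay between 0.005 and 0.21 in knockout and between -0.14 and 0.09 in control lungs, against 1.65 and 1.59 for Npy1r. Umodl1 (mean 3.41), Depdc1b (3.28), Raet1d (2.87) and Spata16 (3.23) read below the array median of 4.55. These values of r are the highest found among all genes and were not tested.

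Npy ran closest to Ighv1-15 (r = 0.922 over the 12 plain values), Vwc2l (0.882), Abcg8 (0.875), Rnu7 (0.856), Ighg3 (0.850) and Nrg3 (0.834). Ighv1-15 and Ighg3 are immunoglobulin gene segments. After removal of group means the closest were Vwc2l (0.940), Tubd1, Foxb2, Tmem145, Wbscr25 and Oosp1, the last with r = 0.923. Npy2r ran closest to Ighv1-9, another immunoglobulin segment (r = 0.888), then to Ndc1, Otud5, Cdc42se2, Scg5 and Ighv1-50 (r = 0.846 for the last). Npy5r ran closest to Zfp827 (0.848), Gmnn, Prl7a2, Ric3, Nhlrc4 and Fahd2a (0.804 for the last). Npy, Npy2r and Npy5r read below the median probe set, and these values of r are descriptions over 12 arrays with no test.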
